A study of Homo sapiens with 9 samples.

Results

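INHBE, FGF21, GDF15 and STC2 are 4 genes for secreted hormones that cells under stress produce, out of 18132 genes with a probe set of their own on the array. They were picked by measured values of the same arrays, as hormone transcripts that stood far lower in biomineralized insulin, so their levels and differences are given as a description with no test. Every probe set of the 4 genes was taken, 10 in all, of which GDF15 had 5, STC2 had 3, and INHBE and FGF21 had 1 each. The cells were R-HepG2, an insulin-resistant form of HepG2, which is a human hepatoma line. After a night without serum they spent 4 h in 1 of 3 media. In the first group this was biomineralized insulin (BI) at 40 ug/ml of insulin, in the second soluble insulin at 40 ug/ml, and in the third plain DMEM, called medium here. Each group had 3 one-colour Affymetrix arrays, and labelling ran from the 3' end of each messenger RNA, so signal comes mostly from probes near that end. The line tag of the BI and insulin samples reads HepG2 and that of the medium samples R-HepG2, while the protocols speak of R-HepG2 for all. A difference between forms of the line and an effect of treatment cannot be told apart in comparisons with medium if the tags are right. No group received the mineral part without insulin, and no source used here says that replicates were separate cultures, so the spread between arrays may be technical.

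INHBE encodes the beta E subunit of activin E, a liver hormone of the TGF-beta family that restrains fat breakdown in adipose tissue. FGF21 is an endocrine fibroblast growth factor that acts on tissues carrying the co-receptor beta-klotho, and GDF15 lowers food intake through the receptor GFRAL in the hindbrain. STC2 is a secreted glycoprotein that blocks the protease PAPP-A and thereby the release of insulin-like growth factors from their binding proteins. In liver cells all of them are known targets of the integrated stress response, in which kinases that phosphorylate the initiation factor eIF2 favour translation of the transcription factor ATF4, and ATF4 with its partner CHOP (gene DDIT3) switches on transcription.

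The start regions of the hormone genes are shown because a composite element bound by C/EBP and ATF proteins is the textbook site for ATF4 at such genes. RefSeq promoter windows (GRCh38.p14), running 250 bases before to 50 bases after the start, were at hand for FGF21, GDF15 and STC2. The stretches printed end 30 bases after the start and read 5′ to 3′ on the gene's strand, with matches to the searched motifs in capitals. They lie at chr19:48755274-48755553 (plus strand) for FGF21, at chr19:18385908-18386187 (plus strand) for GDF15 and at chr5:173328385-173328664 (minus strand) for STC2.
FGF21: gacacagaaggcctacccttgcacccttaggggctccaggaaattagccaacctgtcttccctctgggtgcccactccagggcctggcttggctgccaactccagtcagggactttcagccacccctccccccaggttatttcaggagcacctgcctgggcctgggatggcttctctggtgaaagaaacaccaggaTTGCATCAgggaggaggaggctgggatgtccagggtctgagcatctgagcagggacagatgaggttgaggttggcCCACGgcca
GDF15: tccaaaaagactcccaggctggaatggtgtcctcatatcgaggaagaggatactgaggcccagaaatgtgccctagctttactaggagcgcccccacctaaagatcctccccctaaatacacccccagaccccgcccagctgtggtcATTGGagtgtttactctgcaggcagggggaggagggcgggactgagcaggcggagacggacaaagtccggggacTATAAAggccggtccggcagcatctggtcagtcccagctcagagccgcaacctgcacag
STC2: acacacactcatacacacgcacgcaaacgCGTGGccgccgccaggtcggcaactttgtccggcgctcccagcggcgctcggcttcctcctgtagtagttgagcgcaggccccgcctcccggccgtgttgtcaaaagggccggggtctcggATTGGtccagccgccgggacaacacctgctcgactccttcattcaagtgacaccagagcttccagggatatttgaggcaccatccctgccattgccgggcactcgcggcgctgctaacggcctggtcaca

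The motifs searched on both strands of the whole windows were TGATGCAA (the composite element), TGATGNAA (the same with 1 open position, so that every TGATGCAA is also counted there), TGACGTCA (the cyclic AMP response element), CACGTG (the E-box), CCACG and CCAAT (parts of the endoplasmic reticulum stress element) and TATAAA. FGF21 held the composite element on the opposite strand, printed as TTGCATCA, at positions -54 to -47 from the start. TGATGCAA occurred in 0.866% of 35116 windows of the same length, and TGATGNAA in 3.62%. GDF15 and STC2 held neither form in their windows. FGF21 also held CCACG at 22 to 26 bases after the start, and STC2 held it in reverse, as CGTGG, at -221 to -217. CCACG occurred in 38.1% of windows. Reverse matches to CCAAT, printed as ATTGG, lay at -103 to -99 in GDF15 and at -100 to -96 in STC2, and 34.6% of windows held that motif. GDF15 alone of the 3 genes had TATAAA, at -29 to -24, as did 11.5% of windows. The cyclic AMP response element (1.85% of windows) and the E-box (7.26%) matched in none of the 3 windows. These matches describe letters in a short window and show no binding.

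The 9 arrays had medians of 5.46 to 5.50 log2, and arrays of the same group correlated at 0.998 across probe sets. Genes were compared on the deposited log2 scale with limma over 12240 genes, after the dimmest 40 percent of probe sets (below 4.74 log2) were left out, and a gene is said to be higher or lower where its Benjamini-Hochberg adjusted p over all those genes was under 0.05. For the 4 hormone genes, higher and lower describe group means alone and stand for no such call. In bulk RNA of this kind, fewer cells of a type and less RNA per cell cannot be told apart. The labelled cell type was checked against 18 hepatocyte markers. Probe sets for 16 of them were used and 6 lay above 4.74 log2, with the mean over the list at 4.63 to 4.70 log2 on BI arrays, 4.63 to 4.69 on insulin arrays and 4.60 to 4.71 on medium arrays. ALB (albumin) averaged 3.41 log2 in BI, 3.49 in insulin and 3.29 in medium, and AFP, APOB and SERPINA1 also lay under 4.74 in all 3 groups. CPS1, the first enzyme of the urea cycle, was bright, at 13.00 in BI, 13.17 in insulin and 13.17 in medium. Most defining markers of liver cells were therefore dim. Of 7 airway and lung markers 5 lay above 4.74 log2, with a list mean of 5.41 to 5.49 on BI arrays, 5.31 to 5.34 on insulin arrays and 5.26 to 5.34 on medium arrays. NKX2-1, a transcription factor of lung and thyroid, averaged 6.73 ± 0.05 log2 in BI, 6.36 ± 0.13 in insulin and 6.14 ± 0.05 in medium (SD, n = 3 each) and was higher in BI than in medium (0.59, limma adjusted p = 4.84e-06), a call lost under spike-in centring (0.15). It was singled out after its values were seen, and its other probe set gave -0.09. Above the filter were also 2 of 6 squamous, 5 of 6 fibroblast, 2 of 5 immune and 3 of 4 endothelial markers, beside 12240 of all 18132 genes. Most of a short list above the filter is therefore common, and no cell type is read from these markers. The part of these markers in any difference of the hormones was not tested. The 12 poly-A spike-ins, bacterial RNAs added to the samples at labelling, averaged 7.80 ± 0.17 log2 in BI, 7.39 ± 0.06 in insulin and 7.36 ± 0.08 in medium (SD, n = 3 each). They stood 0.44 log2 higher in BI than in medium, and the part of this shift in any gene's difference was not tested. When values were centred on these controls instead, the median over all tested genes became -0.42 in BI against medium. Called rises of about that size or less in named genes are given with their spike-in values.

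INHBE was bright in both other groups and dim in BI. Its single probe set read 4.06, 4.44 and 4.45 log2 on the BI arrays, 9.38, 9.36 and 9.36 on the insulin arrays, and 9.67, 9.61 and 9.53 on the medium arrays. All BI values lay under the brightness filter of 4.74, and the groups did not overlap. The group means were 4.32 ± 0.22 in BI, 9.36 ± 0.014 in insulin and 9.60 ± 0.07 in medium (SD, n = 3 each). The difference of BI from medium was -5.29 on the log2 scale and that of BI from insulin was -5.05, with a standard error of 0.08 each. With the BI mean set at the filter, which is a rank of brightness and not a measured background, INHBE was at least 29.1-fold lower in BI than in medium and at least 24.6-fold lower than in insulin. Among 12240 tested genes it had the lowest difference in both of these comparisons, and its bounds of -4.86 and -4.62 log2 lay below every other measured difference. Insulin stood 0.24 log2 under medium (difference -0.24, SE 0.08), which was the 105th lowest difference of that comparison and larger than the SD of either group.

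FGF21 was also dim in BI. Its single probe set read 4.51, 3.67 and 3.17 log2 on the BI arrays, 6.94, 6.94 and 6.88 on the insulin arrays, and 7.52, 7.69 and 7.36 on the medium arrays. The BI arrays were far below the others and spread more widely, while the insulin arrays lay just below the medium arrays. The means were 3.78 ± 0.68 in BI, 6.92 ± 0.03 in insulin and 7.52 ± 0.17 in medium (SD, n = 3 each). Again the BI mean was under the filter, so the fold is a bound of at least 6.87-fold lower in BI than in medium and at least 4.52-fold lower than in insulin. The measured differences were -3.74 and -3.14 log2, with a standard error of 0.21 each, and the bounds correspond to -2.78 and -2.18. The measured differences were next to that of INHBE. At the bounds several genes stood lower, among them SLC7A11 (-3.18 and -3.07), ATF3 (-3.02 and -2.72) and DDIT3 (-2.90 and -2.88). Against insulin they also included STC2 (-2.55). The place of FGF21 in the order is therefore not settled. In insulin the mean of FGF21 stood 1.52-fold under that in medium (difference -0.60, SE 0.21), the 2nd lowest difference of that comparison.

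GDF15 stayed above the filter in every group. The probe set with the highest mean, which stands for the gene, read 7.27, 7.04 and 7.57 log2 on the BI arrays, 9.09, 9.22 and 9.12 on the insulin arrays, and 9.76, 9.79 and 9.66 on the medium arrays. Each group was set apart from the others, and insulin lay between BI and medium. Means were 7.29 ± 0.27 in BI, 9.14 ± 0.07 in insulin and 9.74 ± 0.07 in medium (SD, n = 3 each). The gene was 5.44-fold lower in BI than in medium and 3.60-fold lower in BI than in insulin (differences -2.44 and -1.85, SE 0.09 each). Soluble insulin was 1.51-fold under medium (difference -0.60, SE 0.09), the 3rd lowest difference of that comparison.

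STC2 had nearly the same level in insulin as in medium. Its brightest probe set read 6.54, 6.30 and 6.54 log2 on the BI arrays, 8.97, 9.03 and 9.03 on the insulin arrays, and 9.19, 9.18 and 9.12 on the medium arrays. The 3 groups did not overlap, but the gap between insulin and medium was narrow. Means were 6.46 ± 0.14 in BI, 9.01 ± 0.03 in insulin and 9.16 ± 0.04 in medium (SD, n = 3 each). STC2 was 6.50-fold lower in BI than in medium and 5.86-fold lower than in insulin (differences -2.70 and -2.55, SE 0.06 each). Insulin was 1.11-fold under medium (difference -0.15, SE 0.06), which ranked 511th from the lowest.

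**Figure D1:**
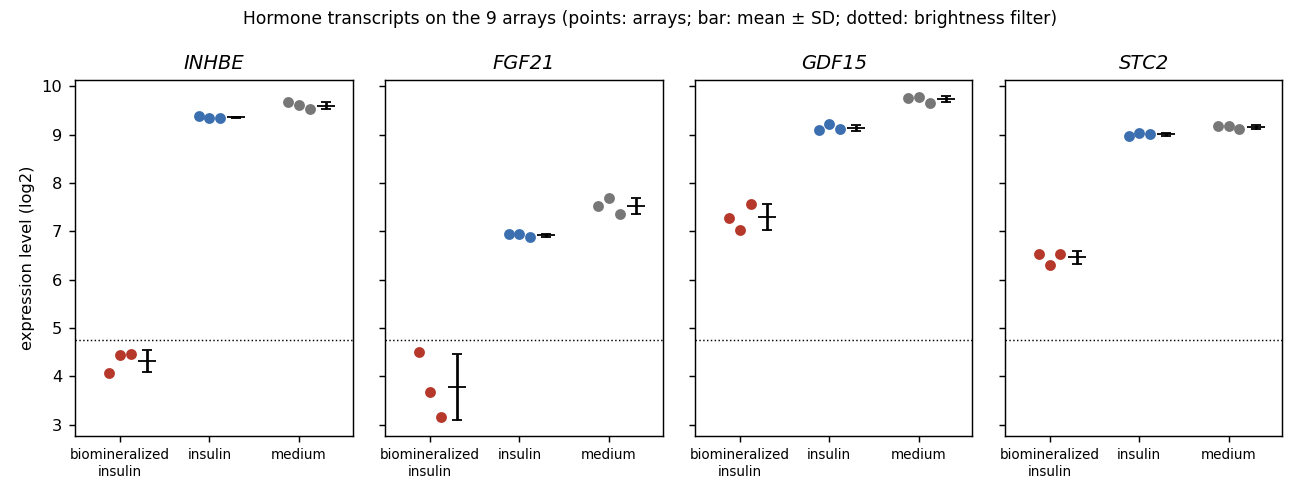
Level of each hormone gene on each array (log2 expression value of the probe set that stands for the gene), with BI, insulin and medium from left to right; points are arrays, the black marks are group means ± SD (n = 3 each) and the dotted line is the brightness filter at 4.74. The BI arrays of INHBE and FGF21 lie under the filter, and in all 4 genes every BI array lies below every insulin array and every insulin array below every medium array.

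The plot of levels by array shows the order BI, insulin, medium for each of the 4 genes, with no overlap between neighbours in that order. In the comparison of BI with medium every BI array was below every medium array for 4 of 4 genes, as it was for 27.7% of all tested genes. For BI against insulin the count was 4 of 4 beside 26.3% of all genes, and for insulin against medium 4 of 4 beside 9.1%. By the limma fit, 25.2% of all tested genes were lower in BI than in medium and 25.7% higher, and 23.3% were lower in BI than in insulin and 21.1% higher. With spike-in centring those shares were 76.4% lower and 1.61% higher against medium, and 77.5% lower and 1.01% higher against insulin. In insulin against medium 1.2% of all genes were lower and 1.25% higher. No call of the fit is given for the 4 hormone genes. The median difference of the 4 genes was -3.22 in BI against medium, -2.84 in BI against insulin and -0.42 in insulin against medium, while the medians over all tested genes were 0.02, 0.02 and 0.01. With INHBE and FGF21 at their bounds the medians of the 4 were -2.74 in BI against medium and -2.36 in BI against insulin. The genes had been chosen by the BI comparisons, so nothing further is read from these counts. Both comparisons with medium share the medium arrays, and those with BI share the BI arrays.

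**Figure D2:**
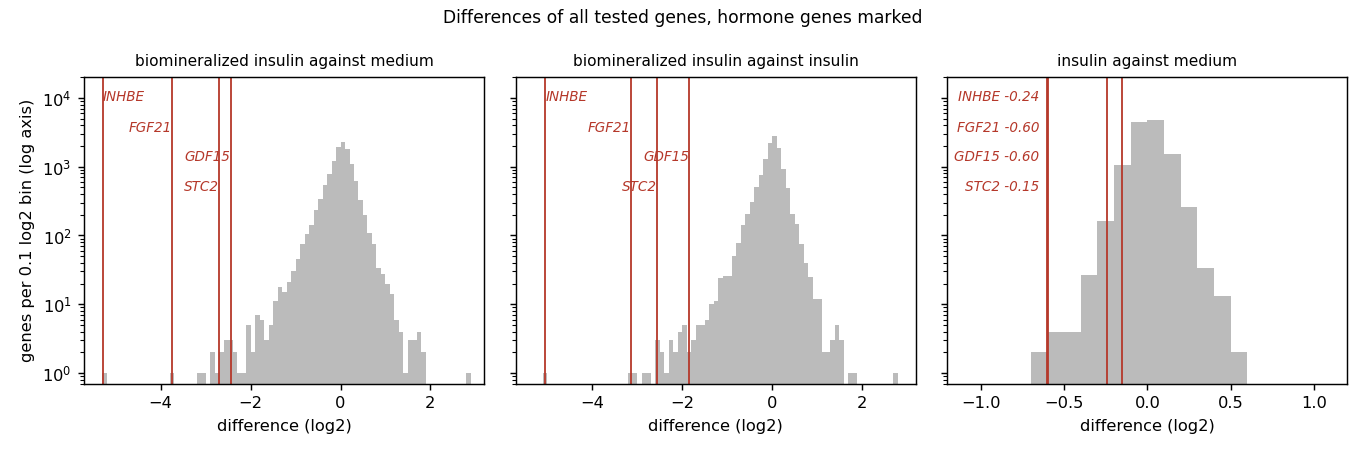
Distribution of the log2 difference over 12240 tested genes in each comparison (genes per bin of 0.1 log2, log axis), with the 4 hormone genes marked by vertical lines; the panel of insulin against medium has a narrower x axis. INHBE is the lowest of all genes in both comparisons of BI, the line of FGF21 there is drawn at a value under the brightness filter, and FGF21 and GDF15 rank 2nd and 3rd from the lowest in insulin against medium.

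Of the genes tested, 142 were lower in BI than in medium by at least 1 log2, and 117 lower in BI than in insulin by as much, so that the hormone genes stand in the lower tail drawn in the plot of all differences. GDF15 ranked 14th and STC2 7th from the lowest in BI against medium. Against insulin they ranked 27th and 7th. No gene was lower by 1 log2 in insulin than in medium.

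Probe sets of the same gene did not all give the same size of difference. For STC2 the other probe sets gave -3.18 and -2.51 in BI against medium, -3.10 and -2.40 in BI against insulin, and -0.08 and -0.11 in insulin against medium. All 3 probe sets of STC2 thus stood low in BI by several log2 and within about 0.2 log2 between insulin and medium. For GDF15, 3 of the 5 probe sets gave large differences. The probe set 11716663_a_at averaged 6.33 log2 in BI, 8.68 in insulin and 9.34 in medium (BI minus medium -3.02), and 11716665_s_at averaged 4.64, 7.28 and 8.01 in the same order (BI minus medium -3.37). The BI mean of the second of these was under the filter, and with BI set at the filter its difference from medium was -3.26. The remaining pair differed little, with -0.11 for 11757729_s_at, whose groups overlapped, and -0.42 for 11757730_x_at. Both of these were designed on the same expressed sequence tag rather than on the gene's reference transcript, and no other probe set of the hormone genes was designed on that tag. The probe set 11716665_s_at and the STC2 probe set 11721437_a_at (-2.51) were not designed on a reference transcript either. Why the pair differed little was not tested. Counted over all 10 probe sets, every BI array was below every medium array in 9 and below every insulin array in 9. Every insulin array was below every medium array in 7. The matching shares over all probe sets of the array are not given here. GDF15 and STC2 have several probe sets each, which are not independent of each other. The genes were also chosen for low values in BI, so nothing further is read from these counts.

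**Figure D3:**
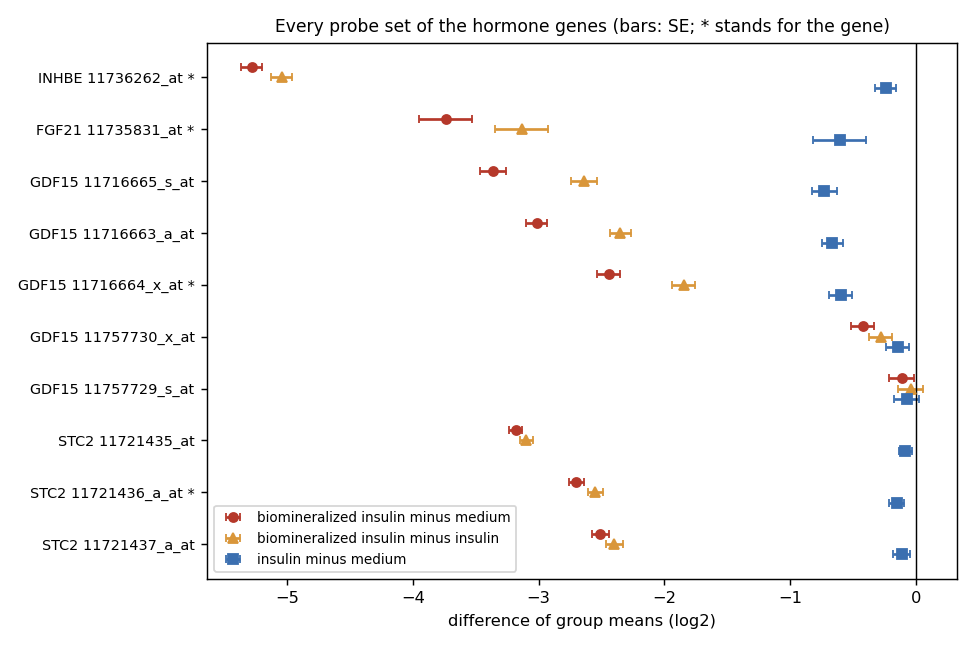
Log2 difference (± standard error of the fit) of each of the 10 probe sets, with an asterisk on the one that stands for the gene, in BI against medium, BI against insulin and insulin against medium. INHBE and FGF21 have 1 probe set each, the 3 of STC2 lie between -2.51 and -3.18 in BI against medium, and those of GDF15 lie between -0.11 and -3.37, the lowest with a BI mean under the filter.

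The likeness of the genes' profiles was measured as the root mean square difference between their 9 log2 values after each gene was centred on its own mean. GDF15 and STC2 were the most alike among the 4, at 0.30 log2. FGF21 lay 0.53 from STC2, 0.73 from GDF15 and 0.93 from INHBE, and INHBE lay 1.21 from STC2 and 1.44 from GDF15. The measure follows the size of the fall in BI as well as its shape. For INHBE and FGF21, whose BI values lay under the filter, that size is only bounded.

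The nearest profiles were sought across the tested genes with unnamed loci left out. The 3 nearest to STC2 were TRIB3 (0.09 log2), PCK2 (0.12) and SESN2 (0.12). TRIB3 is a pseudokinase that restrains ATF4, PCK2 is the mitochondrial PEP carboxykinase and SESN2 is a leucine sensor upstream of mTORC1. Their differences in BI against medium were -2.58, -2.65 and -2.49. Nearest to GDF15 were NUPR1 (0.18), a stress-induced chromatin protein, GADD45A (0.18), a growth arrest gene, and FUT1 (0.18), a fucosyltransferase, with differences of -2.52, -2.35 and -2.04. FGF21 was nearest to SLC7A11 (0.43), the cystine and glutamate exchanger, then to ATF3 (0.48) and DDIT3 (0.51), both transcription factors of the stress response, with differences of -3.18, -3.02 and -2.90. INHBE was nearest to FGF21 itself (0.93), then to SLC7A11 (0.97) and DDIT3 (1.08), and no other gene of this search came closer. These distances are over 9 arrays that fall into 3 groups, and they follow mainly the low BI arrays. The BI values of INHBE, FGF21 and FUT1 lay under the filter, so distances that involve these genes, and their order, are not settled. Promoter windows were at hand for 6 of the 9 genes other than the hormones, and TGATGCAA was found in 1 of them, FUT1, while TGATGNAA was found in ATF3 and FUT1.

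**Figure D4:**
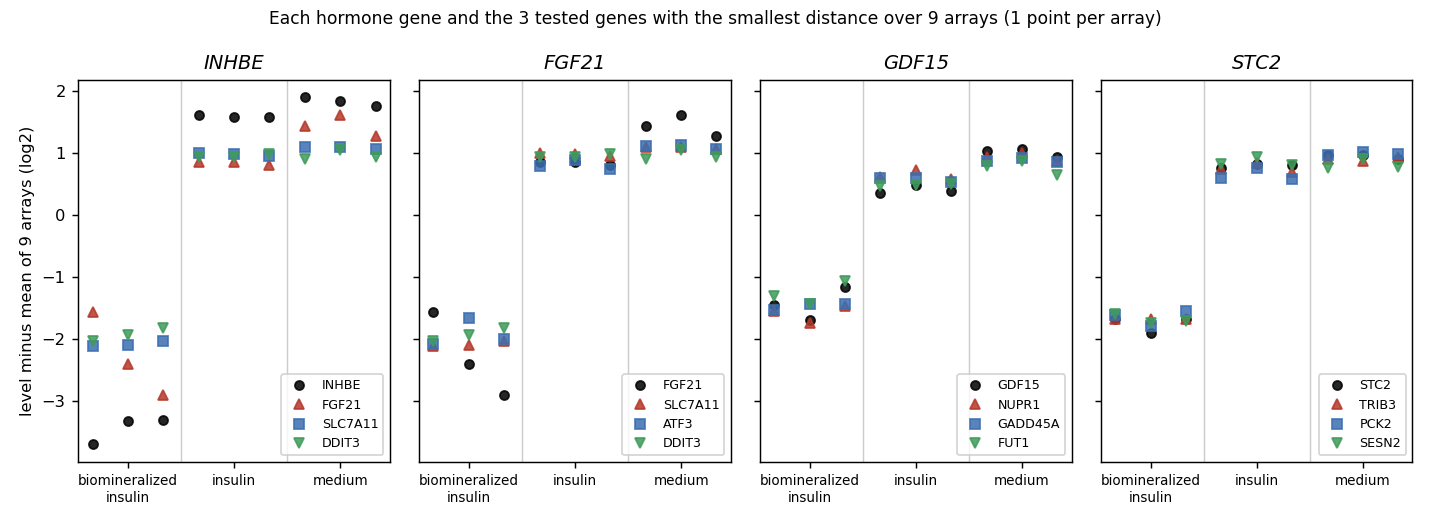
Profiles over the 9 arrays of each hormone gene and the 3 genes nearest to it (log2 value minus the gene's mean over 9 arrays), arrays ordered BI, insulin and medium. Points are arrays; all 4 sets are low on the 3 BI arrays and high on the other 6, and INHBE lies lower in BI than its nearest genes.

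FUT1 is the gene next to FGF21 on chromosome 19, read from the other strand. Its brighter probe set gave 4.48, 4.35 and 4.72 log2 on the BI arrays, 6.25, 6.27 and 6.28 on the insulin arrays, and 6.57, 6.66 and 6.43 on the medium arrays. BI stood well below both other groups and under the filter. FUT1 was lower in BI than in medium by the limma fit (difference -2.04, SE 0.10, adjusted p = 2.99e-11), at least 3.51-fold, and its difference in insulin against medium was -0.29 (adjusted p = 0.125 in limma). The other probe set of FUT1 was dim throughout, at 3.65 log2 in BI, 3.67 in insulin and 3.60 in medium, and did not move. A start window of FUT1, chr19:48755309-48755608 on the minus strand, shares 265 bases with that of FGF21 and so holds the same TGATGCAA, at -119 to -112 from the start of FUT1. FUT1 was singled out after its values were seen.

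The other neighbours of the hormone genes were then described, with the 4 nearest protein-coding genes on each side of each, a rule that was also chosen after the data were seen. Of 32 such genes 27 were tested, and 12 were lower in BI than in medium (25.2% of all tested genes were), 2 were higher (25.7% of all) and 13 were not called, with a median difference of 0.02 log2. Falls of at least 1 log2, called in 142 of all 12240 tested genes, were found in 3 of the tested neighbours. Besides FUT1 these were DDIT3 (-2.90) and MARS1 (-1.34), the methionyl-tRNA synthetase, which lie 4th and 3rd after INHBE on chromosome 12. MARS1 was also the only neighbour called in insulin against medium, where it was lower (limma adjusted p = 0.00309), though its probe set of largest variance gave a difference of 0.28 there. Around GDF15 and STC2 no neighbour was lower by 1 log2. INHBC, the other activin subunit gene beside INHBE, was dim, as was GLI1.

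Activin E is made from a subunit family and signals through receptors of the TGF-beta type. Of the 4 other activin and inhibin subunit genes, INHBA, INHBB and INHBC were dim, and INHA, the inhibin alpha subunit, was tested and not called in BI against medium (difference -0.03, limma adjusted p = 0.756). Of 8 receptors and co-receptors 6 were tested, of which 2 were higher in BI than in medium and 3 were lower, with a median of -0.13. Since 25.7% of all tested genes were higher and 25.2% lower in this comparison, calls of a few genes in this and the other lists are common. ACVR2B, a type II receptor, averaged 7.36 ± 0.04 log2 in BI and 6.70 ± 0.10 in medium (SD, n = 3 each; difference 0.65, SE 0.06), and BMPR2, a receptor shared with bone morphogenetic proteins, was higher by 0.23. ACVR2A, the other activin type II receptor, averaged 6.37 ± 0.04 log2 in BI and 6.87 ± 0.03 in medium (SD, n = 3 each; difference -0.50), so the paired type II receptors moved in opposite directions. ACVR1, a type I receptor, was lower by 0.43 on the log2 scale (difference -0.43), and TGFBR3, the co-receptor betaglycan, had a difference of -0.17. With the probe set of largest variance TGFBR3 was at 0.15, and without the probe sets that match several transcripts ACVR1 was no longer called (-0.12). Under spike-in centring ACVR2B lost its call (0.21) and BMPR2 turned to -0.21. ACVR1B was not called (-0.09), and ACVR1C, the type I receptor through which activin E acts on fat cells, was dim at 3.36 log2 in BI, 3.32 in insulin and 3.43 in medium. In insulin against medium no gene of these lists was called.

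Proteins that catch activins, and the SMAD proteins that carry the signal, were set beside them. FSTL3, a secreted follistatin-like protein that binds activins, averaged 10.93 ± 0.02 log2 in BI, 10.38 ± 0.04 in insulin and 10.34 ± 0.05 in medium (SD, n = 3 each). It was the only 1 of 3 binding proteins and decoys called in BI against medium (difference 0.59, limma adjusted p = 7.76e-10), and it lost its call under spike-in centring (0.15). Follistatin (FST) and the decoy receptor BAMBI had differences of 0.03 and -0.14 and were not called. Among 5 SMAD genes 3 were lower in BI than in medium, SMAD2 (-0.39), SMAD3 (-0.26) and SMAD4 (-0.18), and the inhibitory SMAD6 and SMAD7 were not called. SMAD3 lost its call with the mean of its probe sets, and SMAD4 lost it without medium replicate 1 (-0.11) or BI replicate 1 (-0.12), as in 2 further settings, while 5 of the 5 were called without medium replicate 3. Neither list had a call in insulin against medium. Other ligands of the family were also listed, and 6 of 15 were tested. BMP2, a bone morphogenetic protein, was lower, at 10.70 ± 0.03 log2 in BI, 11.67 ± 0.03 in insulin and 11.83 ± 0.01 in medium (SD, n = 3 each; BI minus medium -1.14, adjusted p = 3.02e-14 in limma), and the other 5 were not called. It was also lower in insulin than in medium (-0.16, limma adjusted p = 0.0109), a call lost in 6 alternative settings, among them leaving out medium replicate 2 (-0.15) or insulin replicate 3 (-0.14). Without medium replicate 1, 2 of the 6 ligands were called in BI against medium.

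The receptors of the other hormones were mostly dim in these cells. Of 6 receptors and co-receptors for FGF21, KLB (beta-klotho, at 3.09 log2 in BI, 3.19 in insulin and 3.14 in medium), KL and FGFR2 were under the filter. FGFR1 averaged 5.99 ± 0.17 log2 in BI and 5.76 ± 0.11 in medium (SD, n = 3 each; difference 0.23) and was called at a limma adjusted p of 0.0354. That call was lost in 8 alternative settings, among them leaving out medium replicate 1 (0.23), medium replicate 2 (0.18) or BI replicate 1 (0.14), and spike-in centring gave -0.21. FGFR3 and FGFR4 had differences of 0.18 and 0.09 and were not called, and spike-in centring gave -0.27 and -0.35. FGF19 and FGF23, the other endocrine fibroblast growth factors, were dim. For GDF15 both the receptor GFRAL, at 2.51 log2 in BI, 2.50 in insulin and 2.50 in medium, and its co-receptor RET were dim.

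STC1, the paralogue of STC2, averaged 6.23 ± 0.15 log2 in BI, 6.58 ± 0.09 in insulin and 6.44 ± 0.16 in medium (SD, n = 3 each). It was lower in BI than in insulin (difference -0.36, limma adjusted p = 0.00392), and was not called against medium (-0.21, adjusted p = 0.0571 in limma), where 8 alternative settings did call it, among them leaving out medium replicate 2 (-0.30) or BI replicate 3 (-0.28). PAPPA, the protease that STC2 blocks, was lower in BI, at 8.44 ± 0.04 log2 against 8.93 ± 0.03 in medium (SD, n = 3 each; difference -0.50, limma adjusted p = 5.73e-08). PAPPA2 and the substrates IGFBP4 and IGFBP5 were not called (0.06, 0.11 and -0.01), and IGFBP2 was dim, though IGFBP4 was called without BI replicate 2 (0.21). Of 6 enzymes that cut hormone precursors or FGF21, 4 were tested. PCSK6, a proprotein convertase, was higher in BI than in medium (0.42, limma adjusted p = 6.09e-05), with -0.02 under spike-in centring and -0.06 without the probe sets that match several transcripts. FURIN, the convertase of the Golgi, was lower (-0.17, limma adjusted p = 0.015) and lost its call without medium replicate 1 (-0.14) or BI replicate 2 (-0.15). PCSK7 and FAP, the protease that inactivates FGF21, were not called.

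Genes known to drive, restrain or accompany the stress-induced expression of these hormones were gathered in a list of 16 genes of the integrated stress response, all tested. The list is labelled inducers in the plot, but it also holds genes that the response induces and brakes on it such as TRIB3. In BI against medium 11 were lower, 4 were higher and 1 was not called, with a median of -0.80 log2, beside 25.2% of all tested genes lower and 25.7% higher. DDIT3 (CHOP) averaged 6.06 log2 in BI, 8.94 in insulin and 8.95 in medium (BI minus medium -2.90, limma adjusted p = 1.17e-15), and ATF3 averaged 5.61, 8.33 and 8.63 in the same order (-3.02, adjusted p = 6.06e-14). TRIB3 (-2.58) and NUPR1 (-2.52) completed the 4 largest. ATF4 itself, named for its role and not by the size of its difference, fell less, at 11.87 ± 0.03 log2 in BI, 12.72 ± 0.04 in insulin and 12.74 ± 0.01 in medium (SD, n = 3 each; BI minus medium -0.87). The array reads the ATF4 transcript, and its known control in this response is largely at translation. The 4 that were higher were ATF5 (0.36), a factor of the same family, and the eIF2 kinases EIF2AK1 (0.16), EIF2AK3 (0.30) and EIF2AK4 (0.59), named because they are few. Under spike-in centring ATF5, EIF2AK1 and EIF2AK3 stood at -0.08, -0.28 and -0.14, and EIF2AK4 at 0.15 was not called. The direction of ATF5, EIF2AK1 and EIF2AK3 thus depends on the scaling. EIF2AK1 also lost its call with the probe set of largest variance (0.12). In BI against insulin there were again 11 lower, 4 higher and 1 not called.

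In insulin against medium 3 of these 16 genes were lower and none was higher, with a median of -0.05 log2, beside 1.2% of all tested genes lower. They were NUPR1 (-0.29, limma adjusted p = 0.0169), CEBPG (-0.15, adjusted p = 0.0338 in limma), a C/EBP protein that pairs with ATF4, and TRIB3 (-0.14, limma adjusted p = 0.0496). TRIB3 lost its call in 17 of 22 alternative settings, among them leaving out any array other than insulin replicate 2 (-0.11 to -0.16). CEBPG lost it in 11, among them leaving out any medium array, insulin replicate 1 or insulin replicate 3 (-0.13 to -0.16). NUPR1 lost it in 5, among them leaving out medium replicate 2 (-0.26), insulin replicate 1 (-0.28) or insulin replicate 3 (-0.26). The number of called genes of the list lay between 0 and 5 over the settings. In the same comparison FGF21 and GDF15 stood at -0.60 each, INHBE at -0.24 and STC2 at -0.15.

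Other factors described as inducers of FGF21 or GDF15 numbered 12 in the list, of which 9 were tested. In BI against medium 5 were lower and 1 was higher, where 25.2% and 25.7% of all genes were. KLF4, a zinc finger factor, averaged 7.18 ± 0.12 log2 in BI, 8.88 ± 0.10 in insulin and 8.90 ± 0.11 in medium (SD, n = 3 each; BI minus medium -1.72). XBP1, a factor of the unfolded protein response, stood at -1.07, the early growth response factor EGR1 at -0.89, the carbohydrate response factor MLXIPL at -0.50 and the oxidative stress factor NFE2L2 at -0.38. PPARA, the fasting receptor that drives FGF21 in liver, was higher by 0.21, with -0.24 under spike-in centring, and 3 were not called. XBP1 was also lower in insulin than in medium (-0.18, limma adjusted p = 0.0445), a call lost in 15 alternative settings, among them leaving out medium replicate 1 (-0.18) or 2 (-0.15), insulin replicate 1 (-0.18) or 3 (-0.16), or BI replicate 1 or 2 (-0.18).

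**Figure D5:**
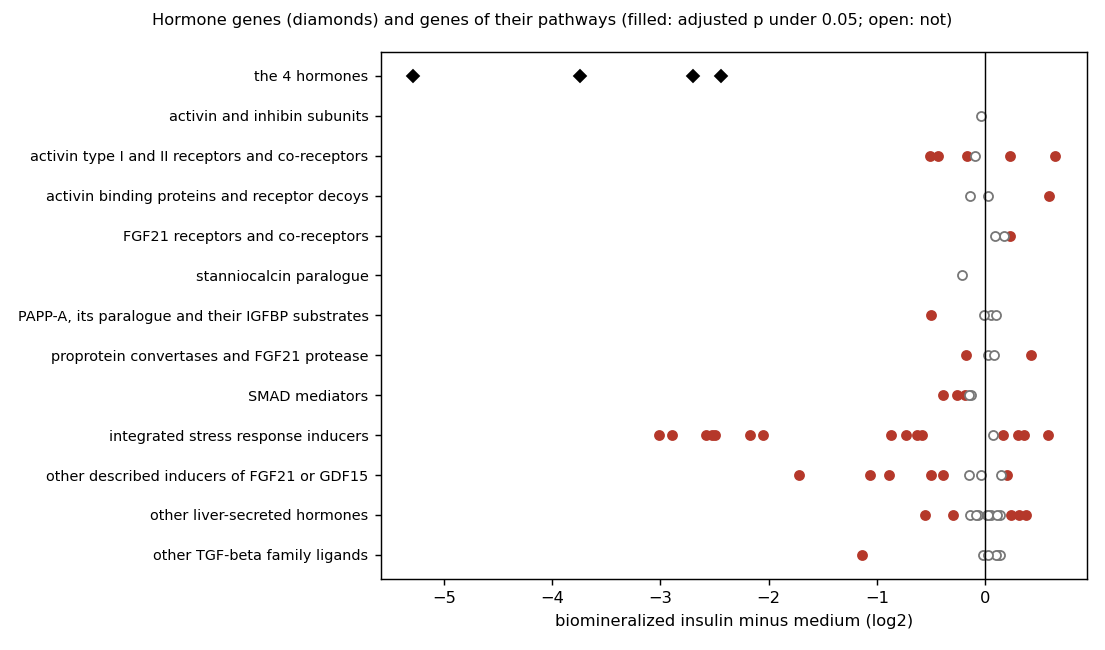
Log2 difference in BI against medium of each tested gene of the pathway lists, 1 row per list, with the 4 hormone genes in the top row; filled points passed the adjusted p threshold of 0.05 and open points did not, while the hormones are drawn without a call. The row labelled integrated stress response inducers, which also holds targets and brakes of that response, reaches -3.02, and genes of the receptor, binding protein and other hormone lists lie within 1 log2 of 0; lists with no tested gene are not drawn.

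Other hormones of the liver were described to set the 4 beside them. Of 23 listed, 13 were tested, with 3 higher in BI than in medium, 2 lower and 8 not called, and a median of 0.03 log2. HAMP, the iron hormone hepcidin, was higher by 0.38, TSKU, the secreted protein tsukushi, by 0.32 and FETUB, fetuin B, by 0.24, and spike-in centring gave -0.06, -0.13 and -0.20. FETUB also lost its call without medium replicate 1 (0.20), medium replicate 2 (0.22), BI replicate 1 (0.21) or BI replicate 2 (0.21). SELENOP, the selenium carrier of plasma, was lower (-0.56, limma adjusted p = 3.83e-07), and ANGPTL4, an inhibitor of lipoprotein lipase, was lower (-0.30, limma adjusted p = 0.0396) but lost its call without medium replicate 3 (-0.17), BI replicate 1 (-0.30) or BI replicate 2 (-0.24). None of the 13 was called in insulin against medium by limma, though HAMP was called without medium replicate 3 (0.32) and SELENOP without medium replicate 1 (0.25) or insulin replicate 2 (0.24).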

How the data were processed

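The authors deposited log2 expression values per probe set for 9 one-colour arrays. That scale was read from their range (2.02 to 14.3), and how they were summarised and normalized is not given in the sources used. Per the labels' protocols, total RNA was amplified and biotin-labelled by 3' in vitro transcription. Groups and replicate numbers came from the sample titles. Of 49395 probe sets, 44988 had 1 gene in the platform annotation, 1832 several, 2473 none and 102 were controls. Symbols of 44961 were updated through Entrez identifiers with RefSeq (GRCh38.p14). The dimmest 40 percent were left out, the probe set with the highest mean stood for each gene, and limma 3.58.1 (R 4.3.3; lmFit, eBayes with trend; residual df 6) was fitted to all 9 arrays, with Benjamini-Hochberg adjustment over 12240 genes at 0.05. The procedure was tested on simulated data with independent noise and few changed genes, a setting unlike these arrays. Nothing is read from that run here. Arrays of the same replicate number did not deviate together (r of -0.23 to 0.17), so they were not paired. Named genes were the hormones, every tested receptor, co-receptor and paralogue, up to 4 called members of each longer list with the largest difference in BI against medium, and the 3 nearest profiles per hormone. The hormone genes and the 14 lists were chosen with earlier results of these data known. The number of arrays limits the precision. Scanner files and detection calls were not used here. A few listed genes were not analysed here. Alternatives covered the replicate block, scaling, an offset, filters, which probe set stood for a gene, the intensity trend, array weights and leaving out each array. Figures were drawn with matplotlib 3.10.9.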

Additional observations from a re-analysis of the deposited data

How the results depend on the processing

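The hormone genes kept the sign of every difference under all 22 alternatives that gave a value, and FGF21 had none under the 60 percent filter, which left it out. Leaving out each array in turn kept INHBE between -5.35 and -5.16, FGF21 between -4.10 and -3.43, GDF15 between -2.58 and -2.32 and STC2 between -2.74 and -2.62 in BI against medium. Sizes moved by more than the replicate spread in the following cases. An offset of 32 on the linear scale gave, for BI against insulin and BI against medium, -3.73 and -3.96 for INHBE, -1.72 and -2.22 for FGF21 and -2.19 and -2.33 for STC2, and -2.23 for GDF15 against medium. Spike-in centring gave -5.46 and -5.73 for INHBE, -2.26 and -2.88 for GDF15, and -2.96 and -3.14 for STC2 in the same order. The mean of probe sets gave GDF15 -1.43, -1.87 and, in insulin against medium, -0.44, and gave STC2 -2.68 in BI against insulin and -0.12 in insulin against medium. The probe set of largest variance gave GDF15 -2.64, -3.37 and -0.73 (a probe set whose BI mean is under the filter) and STC2 -3.10, -3.18 and -0.0836. Without the _x_at and _s_at probe sets GDF15 stood at -2.35, -3.02 and -0.67.

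Counts of all changed genes were 6230 in BI against medium, 5433 in BI against insulin and 300 in insulin against medium. Spike-in centring gave 9544 (197 higher, 9347 lower), 9607 (124 higher, 9483 lower) and 5 (0 higher, 5 lower), and it moved the median of all genes to -0.42, -0.39 and -0.02. In insulin against medium, counts were 152 with the 6 arrays alone, 197 with median centring, 134 with the mean of probe sets, 199 without _x_at and _s_at probe sets, 177 with that of largest variance, 37 with no intensity trend and 604 with array weights, and between 57 and 425 without each array in turn (187 and 62 when medium replicate 1 or 2 was left out, 145 and 57 when insulin replicate 1 or 3 was). The genes of the integrated stress response list called there were 0 with spike-in centring or no trend, 1 with the mean of probe sets or largest variance, 5 with array weights, and 0 to 3 without each array. The replicate block gave 6082, 5302 and 226 changed genes and 2 called genes of the integrated stress response list in insulin against medium. It ended the limma calls of FETUB in BI against medium (adjusted p = 0.0562) and insulin (0.0661), and of CEBPG (0.0533), TRIB3 (0.0779) and XBP1 (0.0647) in insulin against medium. It added calls of ATF3 in insulin against medium (0.0478) and of STC1 in BI against medium (0.018), and changed no other call of a named gene.

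Spike-in centring turned the sign of small rises. Genes called neither in the main fit nor under that centring are left out, such as FGFR3 in BI against medium (-0.27) and HAMP in BI against insulin (-0.20). The other named genes that turned are listed here. In BI against medium the values were -0.21 for BMPR2, -0.21 for FGFR1, -0.35 for FGFR4, -0.41 for FST, -0.0585 for HAMP, -0.34 for IGFBP4, -0.38 for PAPPA2, -0.0199 for PCSK6, -0.13 for TSKU, -0.0787 for ATF5, -0.28 for EIF2AK1, -0.14 for EIF2AK3, -0.20 for FETUB and -0.24 for PPARA. In BI against insulin they were -0.0905 for BMPR2, -0.30 for FGFR3, -0.39 for FGFR4, -0.34 for IGFBP4, -0.35 for PAPPA2, -0.14 for TSKU, -0.37 for EIF2AK1, -0.22 for EIF2AK3, -0.18 for FETUB, -0.0439 for NKX2-1 and -0.23 for PPARA. The choice of probe set turned PCSK6 in BI against medium (-0.0618 without _x_at and _s_at), TGFBR3 in BI against medium (0.15) and insulin (0.18, largest variance both), and MARS1 in insulin against medium (0.28, largest variance). The cause of these changes was not tested. No measured background was used here, so levels under 4.74 log2 are bounds, and the INHBE and FGF21 folds in BI rest on that limit. The alternatives for ATF4, CEBPG, ATF5, EIF2AK1, EIF2AK3, EIF2AK4, FETUB, PPARA, MARS1, FUT1 and NKX2-1 were added after seeing the data.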
